A study of Mus musculus with 6 samples.

Results

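Interferon-stimulated effector genes encode the proteins through which interferon limits viral growth: sensors of foreign nucleic acid, enzymes that degrade RNA, and proteins that block viral entry, translation or release. A list of 33 such mouse genes was followed here by gene symbol, and 32 of the 24062 rows of the deposited count table carry one of these symbols. The remaining gene, Ifit3b, is listed in the table under the older symbol I830012O16Rik, was matched through the synonyms in RefSeq, and is given apart from the counts below. The cells were mouse embryonic fibroblasts, primary connective tissue cells of the C57BL/6 strain. In the p27OE group, p27 (gene Cdkn1b), a protein that stops the cell cycle by binding cyclin-dependent kinases, was overexpressed from a lentivirus. The p27OE cells were taken at day 4, and their titles describe them as non-senescent. The control group is labelled EV, an abbreviation that the labels do not spell out, and was also taken at day 4. The EV titles carry a dataset number, which the p27OE titles lack. Anything that goes with that label cannot be told apart from the difference between the groups. Each group had 3 libraries, numbered 1 to 3. The labels give neither the promoter that drives p27 nor whether the EV cells had received a virus, and whether separate cultures were used is not stated. The p-values therefore measure the spread between these libraries, part of which may be technical.

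Type I interferon, released when a cell detects viral nucleic acid, binds the receptor formed by Ifnar1 and Ifnar2. The receptor's kinases, Jak1 and Tyk2, then start a relay in which a complex that includes Stat2 and Irf9 binds the interferon-stimulated response element in the promoters of the effector genes. Fibroblasts in culture are known to release traces of interferon that keep these genes at a low level without any infection, and some of the products, such as Irf7, raise the response further.

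That response element can be read in the promoters, and the windows below are shown because they are the site through which these genes are known to be switched on together. The RefSeq promoter table (build GRCm38.p6, 250 bases before to 50 after each start) held 23 of the 33 genes with 26 promoters. It had none for Usp18, Mx1, Mx2, Oas1b, Oas2, Dhx58, Zbp1, Rtp4, Ifi27 and Parp14. The core searched was GAAA, any 2 bases and GAAA again, on both strands and with overlapping matches allowed. It occurred in at least 1 promoter of 15 of the 23 genes, and in 16 of the 26 promoters (61.5%) against 3.44% of all 32851 promoters in the table. Each line gives 60 bases, 5′ to 3′ on the strand of the gene, with every match to the core in capitals, which on the other strand has TTTC in place of GAAA.
Bst2 (chr8:71537558-71537617, reverse strand): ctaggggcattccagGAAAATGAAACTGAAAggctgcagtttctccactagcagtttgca
Isg15 (chr4:156200852-156200911, reverse strand): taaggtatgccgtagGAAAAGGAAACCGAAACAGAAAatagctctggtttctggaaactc
Ifit1 (chr19:34640770-34640829, forward strand): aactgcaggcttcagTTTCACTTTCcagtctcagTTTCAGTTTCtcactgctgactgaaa
Ifit3 (chr19:34583358-34583417, forward strand): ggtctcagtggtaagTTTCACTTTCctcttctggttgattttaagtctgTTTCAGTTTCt
Ifit3b (chr19:34607754-34607813, forward strand): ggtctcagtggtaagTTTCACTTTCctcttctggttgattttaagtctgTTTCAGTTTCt
Rsad2 (chr12:26456528-26456587, reverse strand): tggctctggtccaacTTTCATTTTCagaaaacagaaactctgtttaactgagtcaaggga
Gbp2 (chr3:142620589-142620648, forward strand): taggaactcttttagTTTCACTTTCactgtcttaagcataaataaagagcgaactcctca
Ddx58 (chr4:40239779-40239838, reverse strand): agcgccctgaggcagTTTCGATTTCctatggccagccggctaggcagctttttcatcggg
The windows of Ifit3 and Ifit3b are identical, and Isg15 holds 3 overlapping matches. The gamma-activated core TTCNNNGAA, a site of the response to interferon gamma, was in 5 of the 26 promoters (19.2%), against 8.3% of all promoters. In Bst2 it overlaps 1 of the matches to the first core. A match describes the letters of the window and is not evidence of binding.

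**Figure D1:**
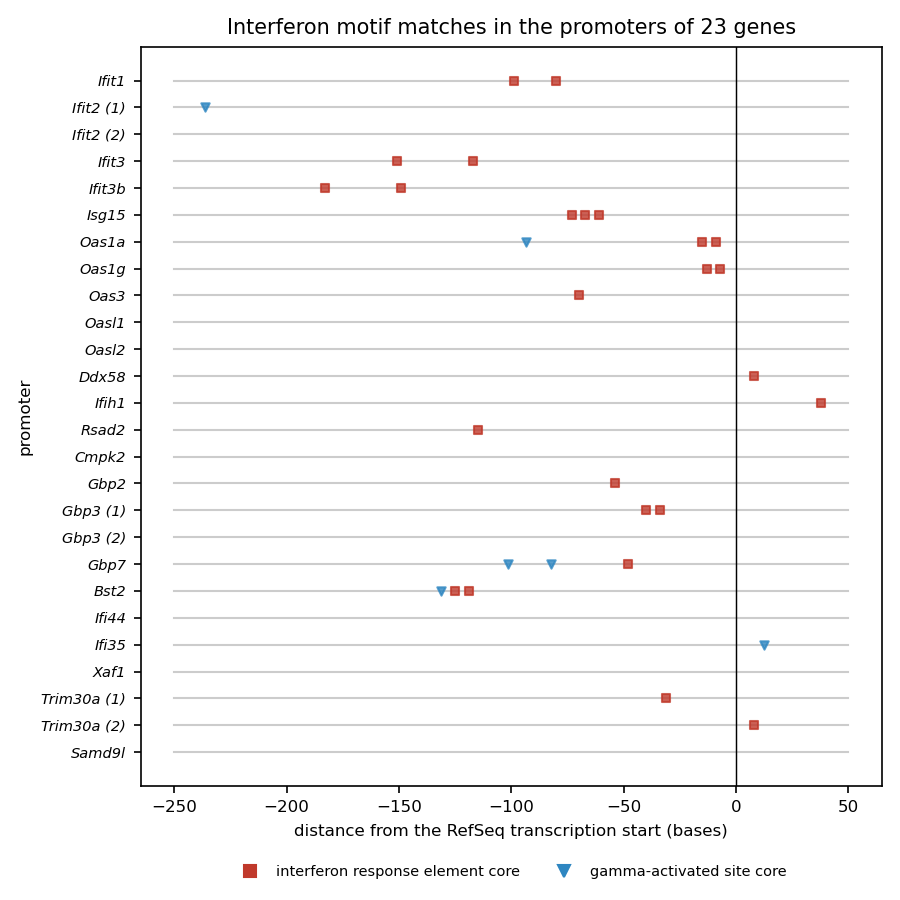
Each row is a promoter of 300 bases from the RefSeq table, drawn by distance from the transcription start in bases, with a number in brackets where a gene has several. Squares mark the middle of each match to the response element core and triangles that of each TTCNNNGAA match: 16 of the 26 promoters hold a square and 5 a triangle.

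Total counts per library lay between 34920728 and 52098220, and 14090 genes had enough counts to be tested. Cdkn1b stood at 419, 978 and 460.0 CPM (counts scaled to library size) in p27OE 1, 2 and 3, against 52.2, 49.9 and 51.2 CPM in EV 1, 2 and 3. Every p27OE library was far above every EV library. The edgeR adjusted p was 0.0873 with pairing and 0.180 without, from unadjusted p of 0.0104 and 2.56e-05. The first principal component, with 58.9% of the variance, set p27OE 1 and EV 1 against the other 4 libraries. Xist, which silences one X chromosome in female cells, had 477 CPM in p27OE 1 and 317 CPM in EV 1. It had 9.57 CPM in p27OE 2 and 5.93 CPM in EV 2. In p27OE 3 and EV 3 it had 0.504 and 0.601 CPM. Ddx3y, on the Y chromosome, had at most 0.0556 CPM in p27OE 1 and EV 1 and 54.3 to 65.5 CPM in the other 4. The libraries numbered 1 were thus of female cells, while the other 4 held male cells. The fibroblast collagen Col1a1 averaged 26300 CPM in p27OE and 23700 CPM in EV. Of 10 fibroblast markers the edgeR fit with paired libraries called Pdgfra and Lum lower (20%) and none higher. Of all genes that fit called 3.63% lower and 3.8% higher. Libraries of one number were compared as pairs throughout, as a within-number log2 ratio (CPM of p27OE over CPM of EV).

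The effector genes were lower in p27OE than in EV in the libraries numbered 1 and 3 and mixed in those numbered 2. Of the 32 genes, 30 passed the filter on low counts. Of these 30, 28 had a negative log2 ratio within number 1 (93.3%, against 51.4% of all tested genes), 14 within number 2 (46.7%, against 50.8%) and 27 within number 3 (90%, against 50.3%). Their median log2 ratio was -0.69, 0.09 and -0.47 within numbers 1, 2 and 3, while the median of all tested genes lay between -0.01 and 0. In bulk RNA, fewer cells that express a gene and less of its RNA per cell cannot be told apart.

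Few of these differences passed a test. edgeR without pairing called none of the 30, and 0 of all 14090 genes (0%). At an unadjusted p under 0.05 it had 3 of the 30, all lower, against 4.02% of all genes. Without pairing neither DESeq2, which called 0.271% of all genes lower, nor limma-voom called any of the 30. With the number as a block, which uses the differences within pairs, edgeR called Bst2 and Oasl2 lower and none higher, 2 of 30 (6.67%) against 3.63% of all tested genes called lower and 3.8% called higher. At an unadjusted p under 0.05 the blocked fit had 13 of the 30 lower (43.3%), against 12% of all genes, and 2 higher, against 11.9%. Of the 30, 14 were lower within each of the 3 numbers (46.7%, against 23.7% of all genes), and 1 was higher within each (21.8% of all genes). The 3 p27OE libraries lay below the 3 EV libraries for Bst2, Ifit3 and Usp18, 3 of 30 (10%), a share near the 8.28% of all genes, and for none did they all lie above (6.61% of all genes).

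Other blocked settings that kept all 6 libraries called 2 to 6 of the genes lower and none higher. DESeq2 called Bst2, Oasl2, Ifit1, Isg15 and Usp18 (2.88% of all genes called lower, 3.93% higher), and limma-voom called Bst2, Oasl2, Ifit3 and Isg15 (2.64% lower, 3.24% higher). In edgeR, upper-quartile scaling called Bst2, Oasl2, Trim30a, Usp18 and Xaf1 (5.22% lower, 3.43% higher), and no filter on low counts, with all 32 genes tested, added Rtp4 to these (3.99% lower, 3.79% higher).

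The pairs did not carry equal weight. Without the libraries numbered 2, the blocked edgeR fit called 11 of the 30 lower and 0 higher, against 2.97% of all genes called lower and 3.51% called higher. Without those numbered 1 it called Bst2 lower (6.04% of all genes were called lower) and Parp14 and Samd9l higher (6.36% called higher). Without those numbered 3 it called Bst2 alone (0.746% called lower, 1.58% higher). These fits rest on 2 pairs each. p27OE 2 was also the library with the most Cdkn1b, and the part of that in the difference between the pairs was not tested.

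**Figure D2:**
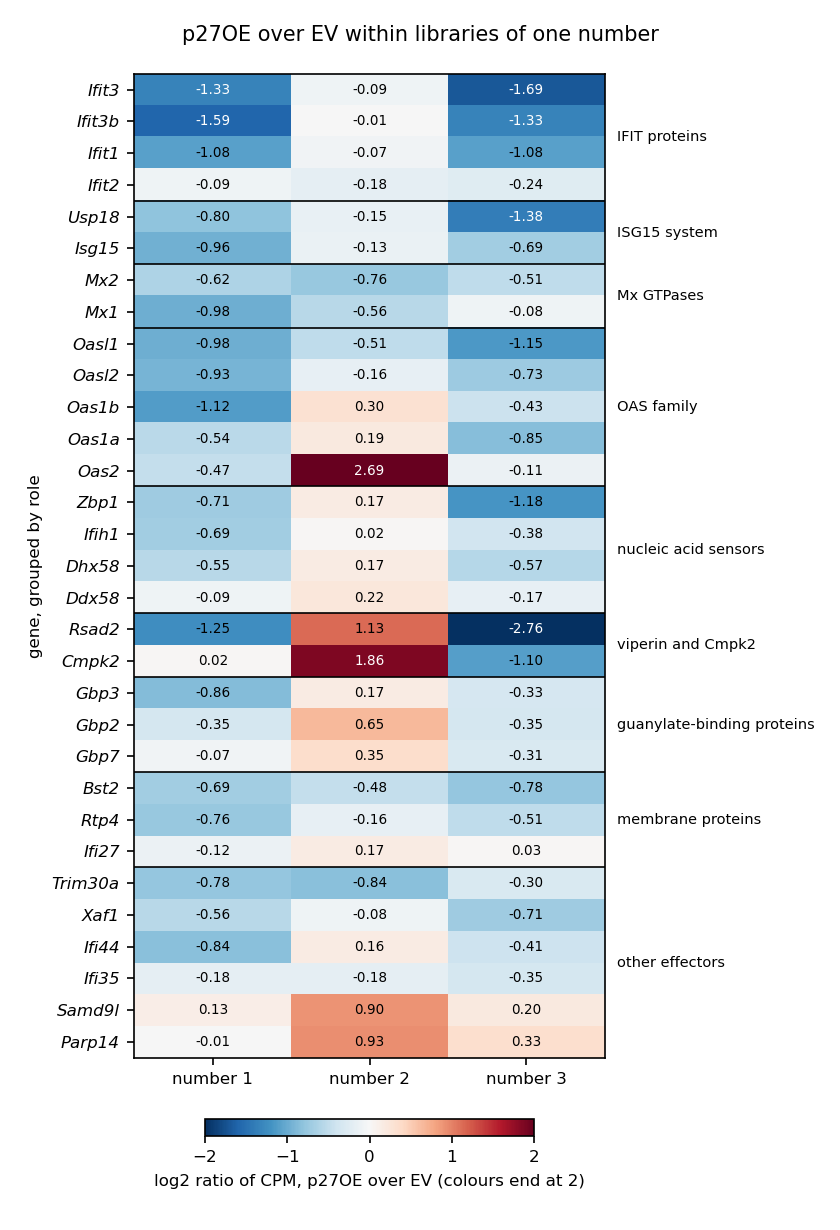
Colour and number give the log2 ratio of CPM, p27OE over EV, within the libraries of each number (columns) for the 30 tested genes and Ifit3b (rows, grouped by role), with blue lower and red higher in p27OE. Columns 1 and 3 are mostly blue, with medians of -0.69 and -0.47 over the 30, and column 2 is mixed, with a median of 0.09.

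**Figure D3:**
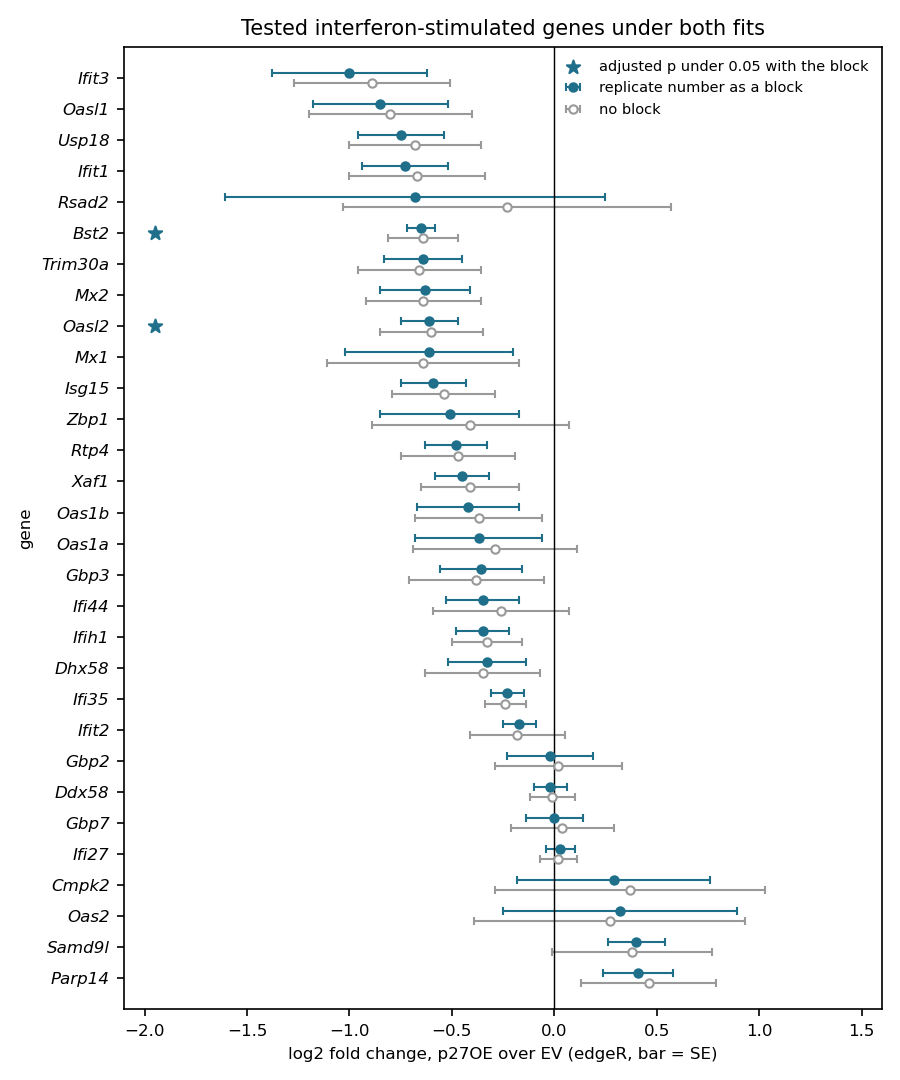
Points are edgeR log2 fold changes, p27OE over EV, of the 30 tested genes with the replicate number as a block (filled) and without it (open), and bars are the SE (n = 3 libraries per group). Bst2 and Oasl2 carry the star of an adjusted p under 0.05 with the block, and most other genes lie to the left of 0 without a star.

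Among the membrane proteins, Bst2 had the smallest blocked p of all 30. It encodes tetherin, which holds budding virus particles on the cell surface, and lies on chromosome 8 from 71534255 to 71537456 on the reverse strand (GRCm38). It stood at 39.8, 59.7 and 46.2 CPM in p27OE 1, 2 and 3, against 64.3, 83.5 and 79.1 CPM in EV 1, 2 and 3. Every p27OE library was below every EV library, and each was also below its own partner, with log2 ratios of -0.69, -0.48 and -0.78. In the blocked edgeR fit it fell by 0.65 ± 0.07 on the log2 scale (SE, n = 3 pairs), with an adjusted p of 0.000132, and without pairing the change was -0.64 ± 0.17 with an adjusted p of 0.676. The blocked call held when pair 1, pair 2 or pair 3 was left out (adjusted p = 5.51e-05, 4.16e-12 and 0.000455). Per length of exon, Bst2 was also the most abundant of the genes, at 53.8 RPKM (CPM divided by the exon length in kilobases) in p27OE and 83.7 RPKM in EV.

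The other genes of that group did not pass the test. Rtp4, a receptor-transporting protein induced by interferon, averaged 4.29 ± 1.18 CPM in p27OE and 5.95 ± 1.56 CPM in EV (SD, n = 3 each), and was lower within each number, at -0.76, -0.16 and -0.51. Its blocked adjusted p in edgeR was 0.0694. Ifi27, a mitochondrial and nuclear envelope protein, showed no such shift: it was at 48.6, 49.9 and 45.8 CPM in p27OE 1, 2 and 3, against 52.9, 44.2 and 45 CPM in EV 1, 2 and 3. The groups overlapped throughout, and the blocked edgeR change was 0.03 ± 0.07 with an adjusted p of 0.862.

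In the family of 2′-5′-oligoadenylate synthetases, which sense double-stranded RNA and switch on the RNA-degrading enzyme RNase L, Oasl2 was the gene that passed. Its product is a family member with ubiquitin-like domains. It lies on chromosome 5 from 114896936 to 114912234 and stood at 8.11, 9.94 and 5.89 CPM in p27OE 1, 2 and 3, against 15.5, 11.1 and 9.79 CPM in EV 1, 2 and 3. The groups overlapped only in p27OE 2, which lay just above EV 3, and the log2 ratios were -0.93, -0.16 and -0.73. With the block, edgeR gave a decrease of 0.61 ± 0.14 (adjusted p = 0.0232). Of the blocked edgeR fits with 2 pairs, the one without the libraries numbered 2 kept the call (adjusted p = 4.91e-06). It was lost without those numbered 1 (0.0618) and without those numbered 3 (0.140). The promoter window of Oasl2, unlike that of Bst2, held no match to the response element core.

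Its neighbour Oasl1, which in mice represses translation of Irf7, was lower within each number (-0.98, -0.51 and -1.15) at levels of 0.395 to 0.835 CPM in p27OE and 0.778 to 1.19 CPM in EV, with a blocked edgeR adjusted p of 0.136. The other synthetases were scarce. Oas1b, which in C57BL/6 is annotated by GENCODE as a polymorphic pseudogene, was at 1.43, 2.92 and 1.86 CPM in p27OE 1, 2 and 3 and at 3.11, 2.37 and 2.50 CPM in EV 1, 2 and 3. Oas1a was between 0.557 and 1.36 CPM in p27OE and between 0.926 and 1.19 CPM in EV, and neither passed the test. Oas2, with 0.186 to 0.365 CPM in p27OE and 0.0565 to 0.426 CPM in EV, had the highest ratio of the tested genes, 2.69 within number 2, from 14 counts in p27OE 2 and 2 counts in EV 2. Oas3 and Oas1g failed the filter, with 1 to 18 and 1 to 2 counts per p27OE library and 7 to 20 and 0 to 3 counts per EV library. Oas1a and Oas1g are near copies: 57.6% of the 50-base stretches in Oas1a transcripts also occur in Oas1g, so reads could be split between them and both values are uncertain.

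Some IFIT proteins bind viral RNA that lacks the marks of host RNA and block its translation. The 4 Ifit genes followed here lie in one cluster on chromosome 19, between 34550694 and 34650009. Ifit1, which recognises RNA without cap methylation, was at 6.15, 9.73 and 3.98 CPM in p27OE 1, 2 and 3, against 13.0, 10.2 and 8.41 CPM in EV 1, 2 and 3. It was lower by 1.08 on the log2 scale within numbers 1 and 3, and within number 2 the ratio was -0.07. The blocked edgeR change was -0.73 ± 0.21 with an adjusted p of 0.0803, and blocked DESeq2 gave an adjusted p of 0.00725.

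Ifit3 showed the largest blocked change of the 30 genes. It was at 4.44, 8.87 and 2.97 CPM in p27OE 1, 2 and 3, against 11.2, 9.44 and 9.61 CPM in EV 1, 2 and 3. All p27OE libraries lay below all EV libraries, but p27OE 2 was close to its partner, and the ratios were -1.33, -0.09 and -1.69. Because they differ, the blocked edgeR change of -1 ± 0.38 had an adjusted p of 0.253. Leaving out pair 2 gave -1.49 (adjusted p = 2.23e-12). Ifit3b, in the row with the older symbol, ran alongside, with ratios of -1.59, -0.01 and -1.33. The values of the pair are uncertain, since 51.2% of the 50-base stretches of Ifit3 transcripts also occur in Ifit3b.

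Ifit2 did not share these ratios. It was at 15.4, 23 and 21.9 CPM in p27OE 1, 2 and 3, against 16.4, 26.0 and 25.9 CPM in EV 1, 2 and 3. It was lower by a small amount within each number (-0.09, -0.18 and -0.24), and libraries numbered 1 were the low ones in both groups. The blocked edgeR adjusted p was 0.199.

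Isg15 encodes a ubiquitin-like protein that is attached to other proteins during an infection, and Usp18 the protease that removes it and that also dampens signalling at the interferon receptor. Isg15 was at 13.9, 28.8 and 18.8 CPM in p27OE 1, 2 and 3, against 27.1, 31.6 and 30.5 CPM in EV 1, 2 and 3. Only p27OE 2 reached the EV range. The ratios were -0.96, -0.13 and -0.69, and the blocked change was -0.59 ± 0.16, with an adjusted p of 0.0861 in edgeR, 0.00117 in DESeq2 and 0.0324 in limma-voom. Usp18 was at 3.60, 5.74 and 2.28 CPM in p27OE 1, 2 and 3, against 6.28, 6.39 and 5.93 CPM in EV 1, 2 and 3. Its groups did not overlap and its EV libraries were close together, while the p27OE libraries spread over a wider range. The blocked adjusted p was 0.0553 in edgeR and 0.0260 in DESeq2.

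Mx proteins are large GTPases that trap viral nucleoprotein, and in the C57BL/6 reference both mouse genes are annotated by RefSeq as transcribed pseudogenes. Mx2 was at 1.58, 1.54 and 1.11 CPM in p27OE 1, 2 and 3, against 2.43, 2.60 and 1.58 CPM in EV 1, 2 and 3. Its ratio within number 2 was as large as in the other pairs (-0.62, -0.76 and -0.51), as it was for Trim30a. The blocked edgeR adjusted p was 0.0984. Mx1, at 0.265 to 0.395 CPM in p27OE and 0.280 to 0.778 CPM in EV, gave 0.406.

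**Figure D4:**
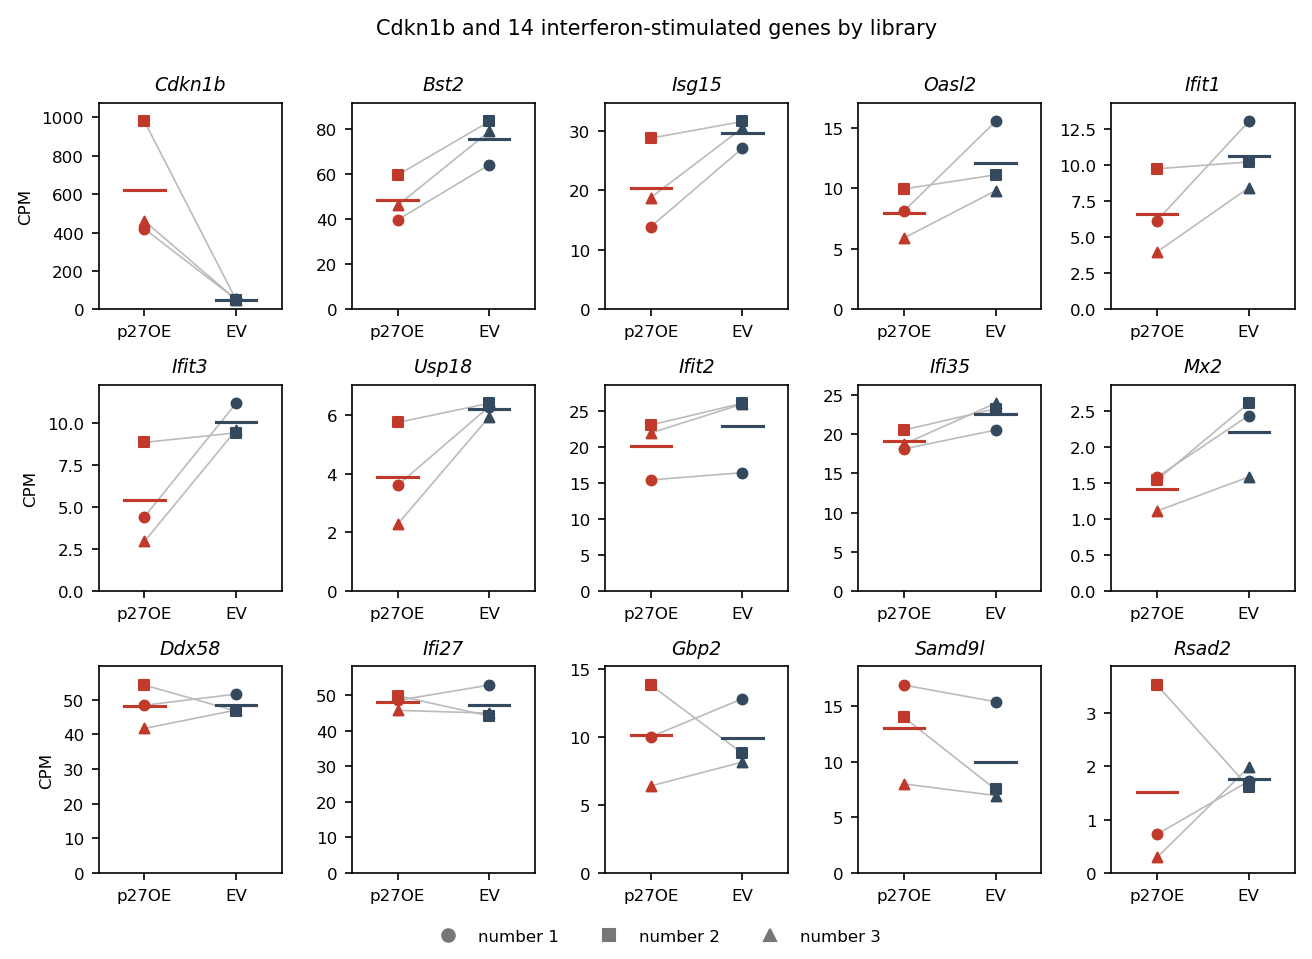
Each panel shows CPM from 0 for Cdkn1b or one of 14 effector genes in p27OE (left) and EV (right), with a symbol for each library number, a grey line between libraries of one number and a bar at the group mean (n = 3). In Isg15, Ifit1, Ifit3 and Usp18 the line of number 2 (squares) is nearly flat and those of numbers 1 and 3 are steep, while all 3 lines of Bst2 slope the same way.

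None of the cytosolic sensors of viral nucleic acid passed the test. Ddx58, which encodes RIG-I and lies on chromosome 4 from 40203773 to 40239828, was at 48.4, 54.2 and 41.7 CPM in p27OE 1, 2 and 3, against 51.6, 46.7 and 47.0 CPM in EV 1, 2 and 3. The p27OE libraries lay on both sides of the EV range, and the blocked edgeR change was -0.02 ± 0.08 (adjusted p = 0.918). Ifih1, which encodes MDA5, averaged 7.61 ± 1.53 CPM in p27OE and 9.58 ± 0.423 CPM in EV (SD, n = 3 each; blocked edgeR adjusted p 0.129). Dhx58, which encodes LGP2, a regulator of both sensors, averaged 2.83 ± 0.514 CPM in p27OE and 3.60 ± 1.12 CPM in EV, with a blocked edgeR adjusted p of 0.310. Zbp1, a sensor of left-handed nucleic acid that can start cell death, was below 1.2 CPM in all 6 libraries. All 4 sensors had negative ratios within numbers 1 and 3, from -0.71 to -0.09 and from -1.18 to -0.17, and ratios of 0.02 to 0.22 within number 2.

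Rsad2, which encodes viperin, an enzyme that makes a chain-terminating nucleotide, and Cmpk2, a mitochondrial nucleotide kinase, are neighbours on chromosome 12 (26442746 to 26456452 and 26469204 to 26479837). Both were highest in p27OE 2 and lowest in p27OE 3. Rsad2 was at 0.725, 3.52 and 0.292 CPM in p27OE 1, 2 and 3, against 1.72, 1.61 and 1.98 CPM in EV 1, 2 and 3. The EV libraries were alike, while p27OE 2 was the highest of the 6 and p27OE 3 the lowest, with ratios of -1.25, 1.13 and -2.76. The blocked edgeR change was -0.68 ± 0.93 (adjusted p = 0.736), and leaving out pair 2 gave -1.86 (adjusted p = 0.000196). Cmpk2 was at 1.52, 1.64 and 0.345 CPM in p27OE 1, 2 and 3 and at 1.5, 0.452 and 0.741 CPM in EV 1, 2 and 3. Its groups overlapped, and it did not pass the test (blocked edgeR adjusted p 0.764).

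The guanylate-binding proteins, GTPases that attack the membranes of intracellular pathogens and respond mainly to interferon gamma, gave no call. Like the sensors, all 3 had negative ratios within numbers 1 and 3 and positive ones within number 2. Gbp2 was at 10.0, 13.8 and 6.39 CPM in p27OE 1, 2 and 3, against 12.8, 8.79 and 8.15 CPM in EV 1, 2 and 3. The groups overlapped, the ratios were -0.35, 0.65 and -0.35, and the blocked edgeR change was -0.02 ± 0.21. Gbp7 averaged 6.75 ± 2.30 CPM in p27OE and 6.58 ± 0.670 CPM in EV, and Gbp3 2.82 ± 0.717 CPM in p27OE and 3.66 ± 1.42 CPM in EV (SD, n = 3 each). Their blocked edgeR changes were 0 ± 0.14 and -0.36 ± 0.20, with adjusted p of 0.989 and 0.308.

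Of the remaining effectors, Ifi35, which forms a complex with the interferon-induced protein Nmi, was at 18.1, 20.5 and 18.7 CPM in p27OE 1, 2 and 3, against 20.5, 23.2 and 23.9 CPM in EV 1, 2 and 3. It was lower within each number, by a steady but small amount (-0.18, -0.18 and -0.35), with a blocked edgeR adjusted p of 0.0873. Xaf1, which promotes cell death, averaged 7.07 ± 2.21 CPM in p27OE and 9.39 ± 0.986 CPM in EV (blocked edgeR adjusted p 0.0578). Trim30a, a mouse inhibitor of inflammatory signalling, averaged 2.04 ± 0.450 CPM in p27OE and 3.22 ± 1.01 CPM in EV (0.0592). Both were lower within each number. Ifi44 averaged 5.21 ± 2.41 CPM in p27OE and 6.26 ± 0.719 CPM in EV (0.260).

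Samd9l and Parp14 lay on the other side. Samd9l, which restricts poxviruses, was at 16.9, 14 and 8.01 CPM in p27OE 1, 2 and 3, against 15.4, 7.52 and 6.97 CPM in EV 1, 2 and 3. It was the one tested gene that was higher within each number, with ratios of 0.13, 0.90 and 0.20, the largest in number 2. The blocked edgeR change was 0.40 ± 0.14 with an adjusted p of 0.125. Parp14, an ADP-ribosyltransferase, averaged 6.33 ± 2.56 CPM in p27OE and 4.61 ± 1.15 CPM in EV (SD, n = 3 each), with ratios of -0.01, 0.93 and 0.33 and a blocked edgeR adjusted p of 0.171.

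Among the 20 tested genes with a promoter in the table, the 12 with a match to the response element core had a median blocked log2 fold change of -0.48 and the 8 without a match -0.29. Their medians within number 2 were 0.09 and -0.12. Other measures went the opposite way: 41.7% of the genes with a match and 62.5% of those without were lower within each number. The shares lower at an unadjusted p under 0.05 in the blocked edgeR fit were the same, 41.7% and 62.5%. Ddx58, Gbp2 and Gbp7 held a match and had blocked changes between -0.02 and 0, and Oasl2 and Xaf1 held none and had -0.61 and -0.45. No test was made of these differences.

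Among the upstream genes of the pathway, a few were called lower in p27OE and the list's median was near 0. Of 44 interferon signalling genes with a row, 34 were tested, and with the block edgeR called 5 lower and 0 higher (14.7%, against 3.63% of all genes called lower). Of the 34, 16 had a negative log2 fold change and 18 a positive one, the median was 0.01, and 26.5% were lower within each number, against 23.7% of all genes. Irf7, the factor that amplifies interferon production, was at 5.80, 8.14 and 5.86 CPM in p27OE 1, 2 and 3, against 12.4, 12.0 and 9.25 CPM in EV 1, 2 and 3. Stat2 was at 55.7, 52.7 and 46.6 CPM in p27OE 1, 2 and 3, against 67.7, 68.4 and 61.9 CPM in EV 1, 2 and 3. In both genes every p27OE library lay below every EV library, and each was below its partner, with log2 ratios of -1.09, -0.56 and -0.66 for Irf7 and -0.28, -0.38 and -0.41 for Stat2. Their blocked adjusted p in edgeR were 0.00327 and 0.00410.

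Irf9, which binds DNA in the same complex as Stat2, was at 32.1, 25.6 and 24.2 CPM in p27OE 1, 2 and 3, against 41.5, 33.3 and 30.3 CPM in EV 1, 2 and 3 (blocked edgeR adjusted p = 0.00746). The groups overlapped through p27OE 1, but each p27OE library was below its partner. Socs3, an inhibitor of cytokine signalling, was at 67.4, 35.0 and 39.7 CPM in p27OE 1, 2 and 3 and 83.5, 54.2 and 52.4 CPM in EV 1, 2 and 3 (blocked edgeR adjusted p = 0.00276), again lower within each number. The blocked edgeR calls of Irf7, Stat2, Irf9 and Socs3 held without the libraries of any 1 number, with adjusted p of at most 0.0470.

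The receptor chains Ifnar1 and Ifnar2, a kinase, an adaptor and a further factor did not pass the test. Ifnar2 was at 44.4, 49.5 and 46.8 CPM in p27OE 1, 2 and 3, against 50.6, 50.4 and 49.9 CPM in EV 1, 2 and 3. Its groups did not overlap, the log2 ratios were -0.19, -0.02 and -0.09, and the blocked edgeR adjusted p was 0.352. Ifnar1 averaged 94.8 ± 7.29 CPM in p27OE and 97.1 ± 3.94 CPM in EV, and Tyk2 40.7 ± 3.90 CPM in p27OE and 41.0 ± 1.53 CPM in EV (SD, n = 3 each). Mavs, the adaptor of the RNA sensors, averaged 36.0 ± 1.89 CPM in p27OE and 34.4 ± 1.44 CPM in EV. On the higher side, Irf8, a factor of immune cells, was at 0.747, 0.574 and 0.636 CPM in p27OE 1, 2 and 3, against 0.241, 0.283 and 0.3 CPM in EV 1, 2 and 3. Every p27OE library was above every EV library, and the blocked edgeR adjusted p was 0.0681. The genes of this paragraph up to here were chosen after their values were seen. Of the 9 interferon ligand genes looked up, 8 had 0 counts in all 6 libraries, which allows up to 0.0556 to 0.0848 CPM per library for counting error alone. Ifnb1, interferon beta, had 1 count in p27OE 2, 2 counts in EV 2 and 0 in the other 4.

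A wider list of 58 tested interferon-stimulated genes outside the 33 gave no call in the blocked edgeR fit, in either direction. At an unadjusted p under 0.05 the blocked fit had 10 lower (17.2%, against 12% of all genes) and 0 higher (against 11.9%). Of the 58, 22.4% were lower within each number, against 23.7% of all genes. All p27OE libraries lay below all EV libraries for 5.17% of the 58, against 8.28% of all genes. The median log2 ratio of the list was -0.20, 0.11 and -0.24 within numbers 1, 2 and 3. The smallest p belonged to Igtp, an immunity-related GTPase, at 6.59, 7.49 and 5.41 CPM in p27OE 1, 2 and 3, against 9.04, 9.13 and 7.17 CPM in EV 1, 2 and 3. Ifitm2, which hinders viral entry, was at 231, 199 and 197 CPM in p27OE 1, 2 and 3, against 291, 208 and 224 CPM in EV 1, 2 and 3. Tap1, a peptide transporter, was at 21.8, 21.4 and 16.2 CPM in p27OE 1, 2 and 3, against 24.1, 23.6 and 22.7 CPM in EV 1, 2 and 3. All 3 were lower within each number, with the groups overlapping for Igtp and Ifitm2 and apart for Tap1, and their blocked edgeR adjusted p were 0.0622, 0.0643 and 0.0895.

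p27OE 2 stood apart in inflammatory interferon targets, which were chosen after their values were seen. Cxcl10, a chemokine that draws T cells, was at 0.549, 16.1 and 1.51 CPM in p27OE 1, 2 and 3, against 2.78, 2.49 and 2.22 CPM in EV 1, 2 and 3. Ccl5, another T cell chemokine, was at 0.220, 3.47 and 0.186 CPM in p27OE 1, 2 and 3, against 0.463, 0.622 and 0.801 CPM in EV 1, 2 and 3. Irf1, a factor induced by interferon gamma and inflammatory signals, was at 24.9, 62.1 and 18.4 CPM in p27OE 1, 2 and 3, against 30.2, 22.9 and 22.1 CPM in EV 1, 2 and 3. In all 3 genes p27OE 2 was the highest library and the other p27OE libraries included the lowest, like Rsad2. None passed the test, with blocked edgeR adjusted p between 0.819 and 0.941. Of the 30 tested effectors, p27OE 2 held the highest value of 8 and EV 1 that of 14, while p27OE 3 held the lowest of 17.

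**Figure D5:**
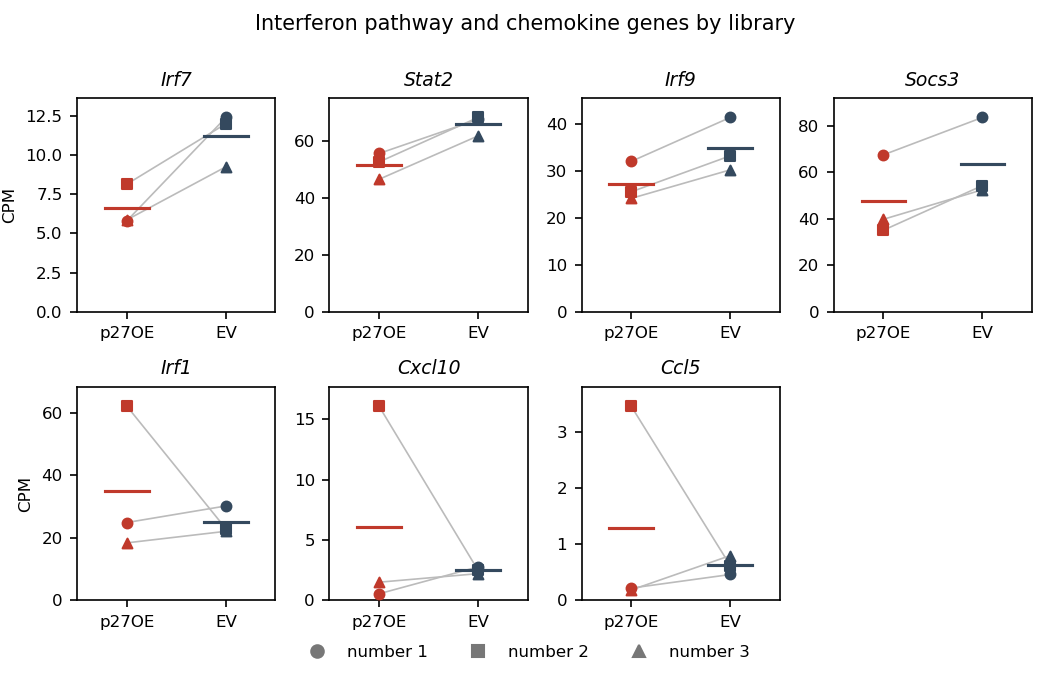
Each panel shows CPM from 0 for a gene of the interferon pathway or a chemokine in p27OE (left) and EV (right), with a symbol for each library number, a grey line between libraries of one number and a bar at the group mean (n = 3). The lines of Irf7, Stat2, Irf9 and Socs3 all run lower in p27OE, and in Irf1, Cxcl10 and Ccl5 p27OE 2 stands at 62.1, 16.1 and 3.47 CPM, above the other 5 libraries.

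Macrophages, which answer interferon strongly, can survive in fibroblast cultures, so their markers are given beside these results. Lyz2 and Emr1 were chosen after their values were seen. The 15 macrophage markers summed to 64.2, 109 and 81.2 CPM in p27OE 1, 2 and 3, against 65.8, 79.6 and 79.9 CPM in EV 1, 2 and 3, and none was at 0 in all 6 libraries. Lyz2, the lysozyme of these cells, made up a large share of each sum, at 28.6, 53.1 and 39.6 CPM in p27OE 1, 2 and 3, against 33.4, 41.8 and 41.3 CPM in EV 1, 2 and 3. Of the 14 tested markers, 11 had a positive log2 fold change (median 0.44) and 3 a negative one (21.4%, against 50.3% of all genes). Within each number 7 were higher, against 21.8% of all genes. The median log2 ratio of the 14 was 0.15, 0.69 and 0.30 within numbers 1, 2 and 3. At an unadjusted p under 0.05 the blocked edgeR fit had 6 higher, against 11.9% of all genes, and 1 lower, against 12%. Of the 14, Emr1, the marker F4/80, was called higher with the block in edgeR (adjusted p = 0.0326), and none was called lower. Of all genes 3.8% were called higher and 3.63% lower. Emr1 was at 2.81, 5.06 and 3.05 CPM in p27OE 1, 2 and 3, against 1.91, 2.15 and 2.12 CPM in EV 1, 2 and 3. p27OE 2 had the highest sum, and the part of these cells in its higher effector levels was not tested. Endothelial markers (8 genes) summed to 17.1 to 20.9 CPM in p27OE and 19.0 to 21.5 CPM in EV. Of the 5 tested, Emcn was called higher in the blocked fit (adjusted p = 0.0354 in edgeR) and none lower. Pecam1 and Cdh5 were at or below 0.160 CPM in every library. Epithelial markers (7 genes) summed to 9.89 to 9.99 CPM in p27OE and 10.9 to 12.1 CPM in EV, with Epcam and Cdh1 at or below 0.200 CPM.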

How the data were processed

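Per the labels' protocols, the libraries came from a TruSeq version 2 kit, which keeps no strand. Reads of a gene and of one overlapping it in antisense therefore cannot be told apart by strand. The deposited values are raw counts, with a row per gene symbol and a column per library. Per the submitters' processing notes, featureCounts 1.4.6 of Subread, TopHat2 2.0.14 and Bowtie2 2.2.6 were used on mm10. Neither the gene annotation nor the handling of multiply mapped reads was given.

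Genes were kept with edgeR's filterByExpr (minimum count 10, minimum total 15), scaled by TMM and tested with edgeR 4.0.16 in R 4.3.3 (robust quasi-likelihood F test, two-sided, Benjamini-Hochberg over all tested genes, threshold 0.05) with group alone. The same fit with the replicate number as a block is printed beside it. The SE was taken from the F statistic. RPKM used exon lengths from GENCODE M21 (GRCm38, the assembly of mm10). Alternatives included DESeq2 1.42.0 and limma-voom (limma 3.58.1). The fits were tested on simulated counts.

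Deviations from the group mean (log2 CPM, prior count 2) correlated at 0.772, 0.416 and 0.535 between libraries of the same number, each above 0.1, so the numbers shared by the titles were taken as pairs. Across numbers 2 and 3 the values were similar (0.391 and 0.408) and also above 0.1. These correlations therefore set number 1 apart but cannot decide how the libraries numbered 2 and 3 pair. For those the pairing, on which the blocked fits rest, was taken from the titles. Counts of 2 libraries of one group differed beyond sampling noise in every case, with a chi-square averaging at least 9.67 over genes. None was therefore the same library sequenced again. This cannot tell separate cultures from separate preparations of the same culture. Exact permutation of single values was not used, since groups of 3 cannot reach a p below 0.1.

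The genes and lists were chosen with earlier results of these data known, and p-values were not adjusted over a list alone. Values in every library are given for genes called in either fit, the 8 with the highest mean CPM and the most abundant of each role, and of the pathway lists for called genes and the 3 with the smallest blocked p. Per-library values of Ifit1, Ifit3, Usp18, Cmpk2 and Oas1b, and the macrophage marker Emr1, were added after they were seen. Rnf213, of the wider interferon list, was not analysed here. A gene of the signalling list is counted in that list but is not reported here.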

Additional observations from a re-analysis of the deposited data

How the results depend on the processing

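With the replicate number as a block, the genes called over the whole table numbered 1047 with TMM, 1042 with RLE scaling, 1219 with upper-quartile scaling, 1416 with no filter, 1018 with at least 1 CPM in 3 libraries, 830 in DESeq2 and 829 in limma-voom, and 1741, 928 and 330 without the libraries numbered 1, 2 or 3, against 0 without the block. Without the block, no filter gave 1, DESeq2 gave 89, and leaving out 1 library gave 0 to 1. In the same blocked fits the effector genes called numbered 2, 2, 5, 6, 2, 5 and 4, and 1 to 11 without the libraries of 1 number. Without the block the count was 0 in every setting run. The median log2 fold change of the tested effector genes was -0.36 and stayed between -0.62 and -0.21 in all settings. It was -0.62 without p27OE 2 and -0.21 without p27OE 1. The SD of the 3 within-number medians of these genes was 0.40. The overexpressed Cdkn1b changed by 3.60 with an edgeR adjusted p of 0.180. It passed the test in DESeq2 (3.61, and 3.49 with the block), in limma-voom with the block (3.49), without p27OE 2 (3.11) and with the block without the libraries numbered 2 (3.09); leaving out 1 library gave 3.11 to 3.81.

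Directions turned for 8 effector genes, none of them called in the main or the reversed setting. Gbp2 (0.02) was -0.02 with the block, 0 with upper-quartile scaling, -0.03 in limma-voom, -0.27 to 0.26 on leaving out 1 library (-0.27 without p27OE 2, -0.06 and -0.10 without EV 2 and EV 3), and with the block -0.01 with RLE scaling, -0.04 with upper-quartile scaling, -0.02 with no filter, -0.01 with at least 1 CPM in 3 libraries, -0.01 in DESeq2, -0.03 in limma-voom and -0.35 without the libraries numbered 2. Gbp7 (0.04) was -0.26 to 0.22 on leaving out 1 library (-0.26 without p27OE 2, -0.01 without EV 3), and with the block 0, -0.03 with upper-quartile scaling, -0.01 with no filter, 0 with at least 1 CPM in 3 libraries, 0 in DESeq2 and -0.18 without the libraries numbered 2. Ddx58 (-0.01) was 0.08 without p27OE 3, 0.04 without EV 1, and with the block 0.02 and 0.06 without the libraries numbered 1 or 3. Ifi27 (0.02) was -0.02 to 0.11 on leaving out 1 library (-0.02 and -0.01 without EV 2 or EV 3) and -0.04 with the block without the libraries numbered 2. Rsad2 (-0.23) was -1.78 to 0.25 on leaving out 1 library (0.10 and 0.25 without p27OE 1 or p27OE 3) and 0.03 with the block without the libraries numbered 3. Oas2 (0.27) was -0.13 to 1.07 on leaving out 1 library (-0.13 without EV 2) and -0.33 with the block without the libraries numbered 2. Cmpk2 (0.37) was -0.38 in that last fit, and Ifi44 (-0.26) was -0.68 to 0 on leaving out 1 library (0 without p27OE 1). The causes were not tested. A lone missing library leaves 2 against 3, and genes under 1 CPM, 5 of the 30 tested, have few counts.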
